A study of Mus musculus with 18 samples.

Results

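Collagen chains are modified inside the endoplasmic reticulum before they are secreted, and 9 mouse genes for this step were followed in alveolar macrophages, out of 32789 genes in the deposited count table. The 9 were taken by gene symbol, for the function of their products, with earlier results of these data known. They are P4ha1, P4ha2 and P4hb (subunits of collagen prolyl 4-hydroxylase), Plod1, Plod2 and Plod3 (lysyl hydroxylases), Colgalt1 and Colgalt2 (collagen galactosyltransferases), and Ero1l (an oxidase of the endoplasmic reticulum). Alveolar macrophages were washed out of the lung airspace and enriched on magnetic beads by the surface protein CD11c, and poly(A) RNA was sequenced in bulk from 18 libraries, 3 in each of 6 groups. Total counts were 19230000 to 34015000 per library (to the nearest 1000).

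The 3 knockout groups carried a CD11c-driven Cre recombinase, and every one of them had lost Vhl. CD11c-Cre_Vhl-Hif1-KO macrophages (Vhl/Hif1a KO) had also lost Hif1a, CD11c-Cre_Vhl-Hif2-KO macrophages (Vhl/Hif2a KO) had also lost Hif2a (gene symbol Epas1), and CD11c-Cre_Vhl-Hif1-Hif2-KO macrophages (triple KO) had lost both. Each knockout was compared with its own flox-flox control, named by its alleles as Control Vhl-Hif1a_flox-flox, Control Vhl-Hif2a_flox-flox and Control Vhl-Hif1-Hif2a_flox-flox. The labels give no strain, age or sex, and do not state whether the libraries of a group came from different mice, so p-values measure the spread between these libraries. CD11c is also made by dendritic cells, and the level of a transcript in bulk RNA cannot tell fewer expressing cells apart from less RNA per cell.

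With oxygen present, the VHL protein directs HIF-1 alpha and HIF-2 alpha, the regulated subunits of hypoxia-inducible factor, to degradation, so that a cell without Vhl keeps whichever of them it still encodes. Collagen prolyl 4-hydroxylase joins a catalytic alpha subunit (P4ha1 or P4ha2) to the protein disulfide isomerase P4hb, and the hydroxyproline it makes keeps the collagen triple helix stable at body temperature. Lysyl hydroxylases make hydroxylysine, to which Colgalt1 and Colgalt2 attach galactose, and both kinds of hydroxylase use oxygen, iron, 2-oxoglutarate and ascorbate. Ero1l reoxidises protein disulfide isomerase. Several of these genes are known targets of HIF in fibroblasts and tumour cells, and macrophages themselves make proteins with collagen-like stretches such as Marco, Msr1 and C1q.

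HIF binds DNA at the core letters ACGTG or GCGTG, and the promoters were searched for both words on both strands. RefSeq promoters of build GRCm38.p6, reaching from 250 bases before to 50 bases after the annotated start, were found for 7 of the 9 genes. Those of 3 genes that rose after Vhl and Hif2a loss, P4ha1, P4ha2 and Ero1l, are shown beside that of Plod3, which did not pass the test in any knockout. They are written 5′ to 3′ on the strand of the gene, at chr10:59323046-59323345 (plus), chr11:54100674-54100973 (plus), chr14:45318523-45318822 (minus) and chr5:136986769-136987068 (plus), with the matches in capitals (CACGT and CACGC are the same words read on the other strand).
P4ha1: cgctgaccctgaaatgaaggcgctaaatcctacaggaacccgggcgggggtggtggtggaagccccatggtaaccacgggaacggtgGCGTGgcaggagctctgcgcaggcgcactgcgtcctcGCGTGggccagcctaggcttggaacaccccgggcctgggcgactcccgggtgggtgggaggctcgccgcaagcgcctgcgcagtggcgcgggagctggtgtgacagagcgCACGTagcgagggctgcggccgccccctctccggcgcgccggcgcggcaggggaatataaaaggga
P4ha2: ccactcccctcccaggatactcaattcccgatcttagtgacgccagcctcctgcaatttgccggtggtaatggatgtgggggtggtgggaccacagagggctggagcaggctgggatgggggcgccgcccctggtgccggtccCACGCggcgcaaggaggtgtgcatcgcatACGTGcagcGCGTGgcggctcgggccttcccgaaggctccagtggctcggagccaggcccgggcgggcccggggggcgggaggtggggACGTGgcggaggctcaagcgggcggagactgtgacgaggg
Ero1l: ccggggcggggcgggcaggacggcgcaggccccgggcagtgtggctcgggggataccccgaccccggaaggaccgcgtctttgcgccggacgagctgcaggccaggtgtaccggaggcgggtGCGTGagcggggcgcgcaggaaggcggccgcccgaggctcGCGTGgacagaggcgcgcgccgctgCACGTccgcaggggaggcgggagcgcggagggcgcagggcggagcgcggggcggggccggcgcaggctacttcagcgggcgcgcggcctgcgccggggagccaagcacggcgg
Plod3: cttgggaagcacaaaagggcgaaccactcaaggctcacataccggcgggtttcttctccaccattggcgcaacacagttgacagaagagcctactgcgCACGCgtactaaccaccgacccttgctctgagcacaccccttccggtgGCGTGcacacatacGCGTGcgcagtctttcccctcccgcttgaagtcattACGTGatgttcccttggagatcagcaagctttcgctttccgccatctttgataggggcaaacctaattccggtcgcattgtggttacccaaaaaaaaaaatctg
In this window ACGTG occurred 1 time in P4ha1, 2 times in P4ha2, 1 time in Ero1l and 1 time in Plod3, and GCGTG occurred 2, 2, 2 and 3 times in the same order. P4hb held 2 and 1 matches of ACGTG and GCGTG, Plod1 held 0 and 2, and Colgalt1, which has 2 annotated starts, held 0 and 2 at the first start and 0 and 3 at the second. At least 1 match of either word was present in 43.8% of all 32851 promoters of the table, ACGTG in 19.6% and GCGTG in 32.4%. Plod3 and Colgalt1 held matches as the other genes did, and a match is only a run of letters, not a measured binding site.

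The deletions were first checked on Vhl itself. Vhl had 2.93, 3.09 and 2.62 counts per 1000000 (CPM) in Vhl/Hif1a KO libraries, against 18.7, 18.9 and 13.2 CPM in their controls. It had 1.92, 2.48 and 2.36 CPM in Vhl/Hif2a KO libraries, against 17.5, 20.1 and 18.6 CPM in their controls, and 1.96, 2.10 and 2.53 CPM in triple KO libraries, against 12.3, 12.2 and 14.3 CPM. Its log2 fold changes were -2.55, -3.05 and -2.56 (edgeR adjusted p = 8.8e-08, 7.6e-10 and 1.2e-07).

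The counts of Hif1a and Epas1 are summed over whole genes, exons outside the deleted parts included, and do not check those deletions. Hif1a had 206, 209 and 166 CPM in Vhl/Hif1a KO, against 230, 225 and 232 CPM in the control, and 236, 241 and 239 CPM in triple KO, against 251, 137 and 238 CPM. Epas1 had 48.0, 56.1 and 58.6 CPM in Vhl/Hif2a KO, against 35.1, 23.2 and 24.7 CPM in the control, and 38.4, 30.6 and 33.7 CPM in triple KO, against 37.2, 51.4 and 32.6 CPM. In Vhl/Hif2a KO, Epas1 RNA rose by 0.97 on the log2 scale (edgeR adjusted p = 0.0019), and the RNA of Hif1a, which these cells keep, fell by 1.71 (edgeR adjusted p = 4.3e-06). The 12 alveolar macrophage markers examined, among them Siglecf, Marco and Chil3, were present in every group, and their summed level was above that of the controls in every library of all 3 knockouts. It was 33250 to 40062 CPM in Vhl/Hif1a KO, against 28496 to 30001 CPM in the control, 34706 to 37102 CPM in Vhl/Hif2a KO, against 25500 to 29319 CPM, and 33569 to 34196 CPM in triple KO, against 22439 to 30559 CPM. Most of this sum was Chil3, and single markers went both ways. Siglecf had a mean of 449 CPM in Vhl/Hif1a KO, against 568 CPM in the control (edgeR adjusted p = 0.033). It had 466 CPM in Vhl/Hif2a KO, against 576 CPM (adjusted p = 0.023). Fabp4 rose in the same 2 knockouts (edgeR adjusted p = 0.00025 and 4.7e-06). Itgax, the gene of CD11c, had a mean of 2144 CPM in Vhl/Hif2a KO, against 1568 CPM in the control (adjusted p = 9.8e-05). In triple KO it had 2149 CPM, against 1364 CPM (adjusted p = 6.8e-05). The part of these differences in the results below was not tested.

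Control libraries were not alike in every group. Library 2 of the triple control stood apart from all others. The chi-square per degree of freedom between it and its 2 partners was 131 and 133, and every other pair of replicates lay between 9.04 and 45.4. Library 3 of the Vhl/Hif1a control and library 1 of the Vhl/Hif2a control held 32.5 and 11.5 CPM of the HIF target Egln3, more than the other libraries of their groups (0.464 and 0.617 CPM, and 2.47 and 0.465 CPM). Values without these libraries are given below for the triple KO and for calls that change without them. The 3 were picked after the data were seen, as control libraries with the highest or lowest levels among the 9 genes. A call gained without them is therefore no independent support for these genes.

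Alveolar macrophages that had lost Vhl and Hif2a held more RNA of 7 of the 9 genes than their controls, in those that had lost Vhl and Hif1a P4ha1 passed the test, and no gene of the set passed the test in the triple knockout. A gene was called when its adjusted p was under 0.05 (edgeR quasi-likelihood test, Benjamini-Hochberg adjustment over 12900 tested genes). Of all tested genes, 14.7% were called in Vhl/Hif2a KO, 7.68% higher and 7.01% lower, and the 7 of 9 genes of the set called were all higher. In Vhl/Hif1a KO edgeR called 1 of 9, higher (DESeq2 called 2), where 3.64% of all tested genes were called, 2.22% higher and 1.42% lower. The triple KO had 0 of 9 called by edgeR, with 0.0388% of all tested genes called in either direction. At an unadjusted edgeR p under 0.05 there were 2 of the 9, Plod1 and Ero1l, and DESeq2 also called 0. The share of all tested genes at an unadjusted p under 0.05 is not given here. Counts at that threshold, here and below, can therefore not be set against it. The median log2 fold change of the 9 genes was 0.28 in Vhl/Hif1a KO, 1.39 in Vhl/Hif2a KO and 0.07 in the triple KO, against -0.001, 0.003 and -0.01 over all tested genes. It was 0.28 in Vhl/Hif1a KO also with 3 counts put in place of the 0 counts of Colgalt2 in the control. All 9 genes passed the filter on low counts, but P4ha2 and Colgalt2 did so only through their counts in the Vhl/Hif2a KO libraries. Their calls among the 7 therefore concern genes that entered the filtered test only by being high in that group.

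**Figure D1:**
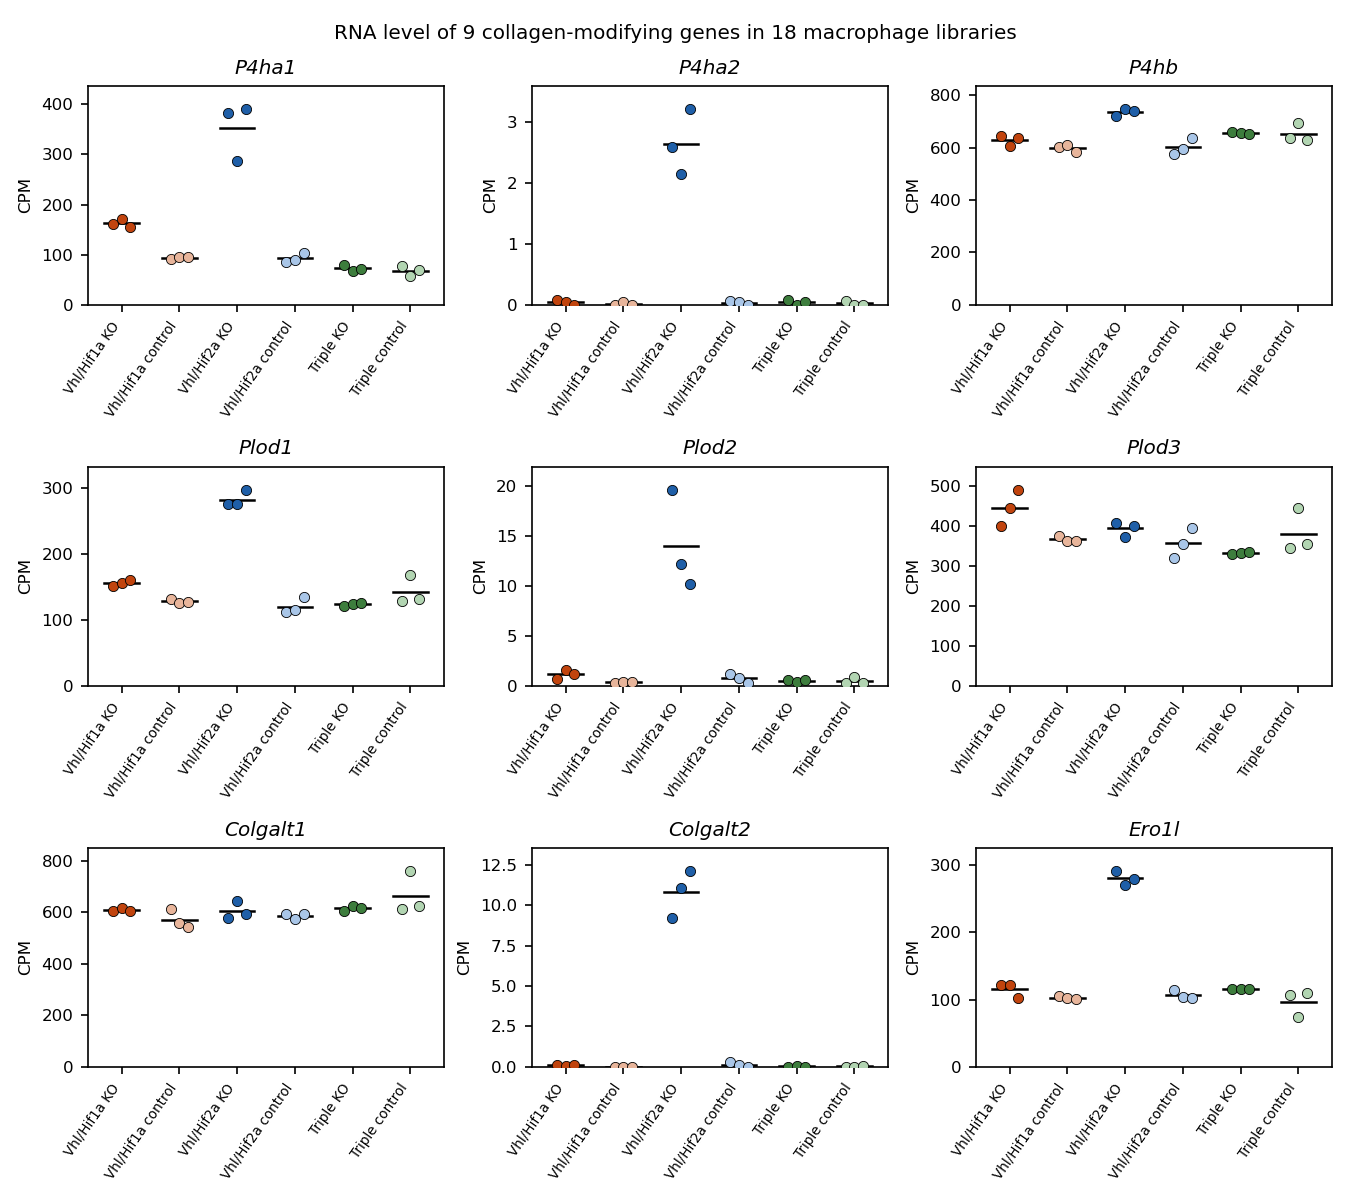
Level of each of the 9 genes in counts per 1000000 (CPM, vertical axis, a separate linear scale from 0 for each gene) in the 3 libraries of each group, with the group mean as a bar. P4ha1, P4ha2, Plod1, Plod2, Colgalt2 and Ero1l stand well above their controls in the Vhl/Hif2a KO libraries, with P4ha1 at 286 to 390 CPM against 86.1 to 104 CPM, and Colgalt1 and Plod3 overlap between Vhl/Hif2a KO and control.

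P4ha1, the main catalytic subunit of collagen prolyl 4-hydroxylase in most tissues (chromosome 10, 59323296 to 59373304, plus strand, build GRCm38), was called by edgeR in 2 knockouts. It had 382, 286 and 390 CPM in Vhl/Hif2a KO libraries, against 86.1, 88.4 and 104 CPM in their controls. It had 161, 172 and 155 CPM in Vhl/Hif1a KO libraries, against 90.2, 94.6 and 95.6 CPM in their controls. Every library of both knockouts lay above every library of its control, and the lowest Vhl/Hif2a KO library lay above the highest Vhl/Hif1a KO library. The log2 fold change was 1.93 ± 0.13 in Vhl/Hif2a KO (SE, edgeR adjusted p = 1.5e-08) and 0.80 ± 0.12 in Vhl/Hif1a KO (edgeR adjusted p = 0.00067), or 3.80-fold and 1.74-fold. Triple KO libraries had 79.6, 67.1 and 71.9 CPM, against 77.3, 57.0 and 70.0 CPM in their controls, and the groups overlapped. The fitted change there was 0.10 ± 0.12 (edgeR adjusted p = 0.68), and -0.01 without triple control library 2, which held the lowest value.

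The response of P4ha1 differed between the crosses when the difference itself was tested. Its log2 fold change was higher by 1.13 ± 0.18 in Vhl/Hif2a KO than in Vhl/Hif1a KO (edgeR interaction term, adjusted p = 0.0011), and by 1.83 ± 0.18 than in triple KO (adjusted p = 3.7e-06). Vhl/Hif1a KO exceeded triple KO by 0.70 ± 0.18 (adjusted p = 0.048), a call lost in 11 of 12 fits that left out 1 library. Of all tested genes, 1.63%, 4.91% and 1.5% were called higher in these 3 differences, and 2.44%, 7.99% and 2.04% in either direction. The 9 genes gave 3, 4 and 1 calls, all of them higher.

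P4ha2, the second catalytic alpha subunit (chromosome 11, 54100095 to 54131665, plus strand), was nearly absent outside one group. It had 2.58, 2.14 and 3.20 CPM in Vhl/Hif2a KO libraries, against 0.0511, 0.0386 and 0 CPM in their controls, or 254 counts against 2 over the group. All 3 Vhl/Hif2a KO libraries lay above every other library of the study. The ratio of CPM was 88.7 with a 95% exact interval of 24.3 to 737 that covers counting error only, and the fitted log2 fold change was 6.26 ± 0.74 (edgeR adjusted p = 1.4e-05). Vhl/Hif1a KO had 3 counts over its 3 libraries, against 1 in its control, and triple KO had 3, against 2 (fitted log2 0.41, or -0.03 without control library 2). Differences between crosses were imprecise for this gene, at 5.06 ± 2.52 for Vhl/Hif2a KO over Vhl/Hif1a KO (edgeR adjusted p = 0.53) and 5.85 ± 1.93 over triple KO (adjusted p = 0.075, and called by DESeq2). With so few counts these ± values, derived from the edgeR F statistic, are not a reliable SE.

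P4hb, the beta subunit and an abundant protein disulfide isomerase in its own right (chromosome 11, 120560298 to 120573253, minus strand), had 722, 746 and 740 CPM in Vhl/Hif2a KO libraries, against 575, 593 and 635 CPM in their controls. The groups did not overlap, but the rise was small, at 1.22-fold (log2 0.29 ± 0.06, edgeR adjusted p = 0.0044). Vhl/Hif1a KO libraries had 645, 605 and 635 CPM, against 603, 611 and 582 CPM in their controls (log2 0.07 ± 0.06, edgeR adjusted p = 0.75). Triple KO libraries had 660, 655 and 651 CPM, against 637, 695 and 628 CPM (log2 0.003 ± 0.06, edgeR adjusted p = 0.98, or 0.06 without control library 2). The P4hb response in Vhl/Hif2a KO did not pass the test against that in Vhl/Hif1a KO (difference 0.22 ± 0.09, edgeR adjusted p = 0.33) or in triple KO (0.29 ± 0.09, adjusted p = 0.059, and called by DESeq2).

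The RNA of the alpha subunits was also set against that of P4hb within each library. Per kilobase of exon, the sum of P4ha1 and P4ha2 was 0.335 ± 0.0585 of P4hb in Vhl/Hif2a KO, against 0.107 ± 0.00554 in its control (SD, n = 3 each). It was 0.180 ± 0.0153 of P4hb in Vhl/Hif1a KO, against 0.109 ± 0.00523 in its control (SD, n = 3 each). Neither pair of groups overlapped, and the exact two-sided permutation p was 0.1 for each, the smallest that 3 libraries against 3 can give. In triple KO the ratio was 0.0773 ± 0.00635, against 0.0730 ± 0.0142 in its control (SD, n = 3 each, exact permutation p = 0.9). P4ha2 stayed a minor part of the alpha-subunit RNA, at 0.491% ± 0.0476 per kilobase in Vhl/Hif2a KO, against 0.0226% ± 0.0203 in its control (SD, n = 3 each), and at 0.980% against 0.0453% when the longest transcript was taken as gene length.

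**Figure D2:**
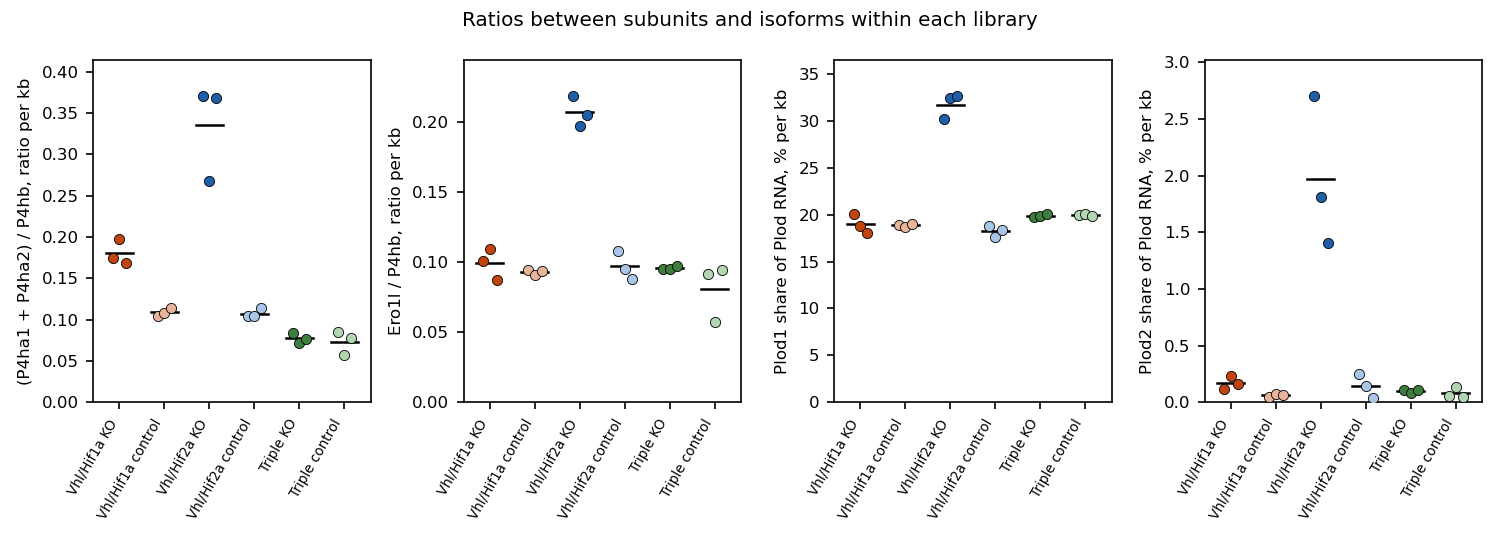
Ratios within each library, per kilobase of exon, for the alpha subunits over P4hb, Ero1l over P4hb, and the shares of Plod1 and Plod2 in the RNA of the 3 Plod genes (percent); points are libraries and bars are group means. In all 4 panels the 3 Vhl/Hif2a KO libraries lie above every other library, as with the Plod1 share at 30.2% to 32.6% against 17.6% to 18.8% in their controls.

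Of the lysyl hydroxylases, Plod1, which hydroxylates lysines within the collagen helix (chromosome 4, 147909753 to 147936767, minus strand), had 275, 275 and 296 CPM in Vhl/Hif2a KO libraries, against 111, 114 and 134 CPM in their controls. The groups lay far apart, and the rise was 2.35-fold (log2 1.23 ± 0.09, edgeR adjusted p = 8.1e-08). Vhl/Hif1a KO libraries had 151, 155 and 160 CPM, against 131, 125 and 127 CPM in their controls. These did not overlap either, but the log2 fold change of 0.28 ± 0.09 did not pass the test (edgeR adjusted p = 0.14). It passed when only the 6 libraries of this cross were fitted (adjusted p = 0.046) and without the 3 control libraries that stand apart (adjusted p = 0.032). Triple KO libraries had 121, 124 and 126 CPM, against 129, 167 and 132 CPM (log2 -0.20 ± 0.09, edgeR adjusted p = 0.43, or -0.07 without control library 2). The Plod1 response in Vhl/Hif2a KO exceeded that in Vhl/Hif1a KO by 0.96 ± 0.13 (edgeR interaction, adjusted p = 0.00032) and that in triple KO by 1.44 ± 0.13 (adjusted p = 2.1e-06).

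Plod2, the lysyl hydroxylase of collagen telopeptides (chromosome 9, 92542223 to 92608428, plus strand), was low in every control. It had 19.6, 12.2 and 10.2 CPM in Vhl/Hif2a KO libraries, against 1.18, 0.733 and 0.232 CPM in their controls. The lowest Vhl/Hif2a KO library held several times the highest control, which was control library 1, and the log2 fold change was 4.30 ± 0.46 (edgeR adjusted p = 4.3e-06). In counts this was 1325 against 47, a ratio of CPM of 19.7 (95% exact interval 14.7 to 26.9, counting error only).

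In Vhl/Hif1a KO libraries Plod2 had 0.676, 1.53 and 1.17 CPM, against 0.253, 0.396 and 0.347 CPM in their controls. The groups did not overlap, yet the log2 fold change of 1.75 ± 0.53 missed the threshold (edgeR adjusted p = 0.097, DESeq2 adjusted p = 0.017). Its summed counts were 89 against 24. In triple KO the counts were 42 against 36, and the log2 fold change was 0.07 ± 0.55 (edgeR adjusted p = 0.96), or 0.84 without triple control library 2. The Plod2 response in Vhl/Hif2a KO exceeded that in triple KO by 4.23 ± 0.72 (edgeR interaction, adjusted p = 0.0011), or by 3.46 without triple control library 2. Against Vhl/Hif1a KO the difference was 2.55 ± 0.73 (adjusted p = 0.090), and it was called by DESeq2 and without the filter on low counts. It was also called without Vhl/Hif2a control library 1 and without the 3 control libraries that stand apart. Library 1 held the highest Plod2 value of its group, so these last 2 calls are no independent support.

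Plod3, which carries glycosyltransferase activities beside lysyl hydroxylation (chromosome 5, 136987019 to 136996648, plus strand), was the most abundant of the 3 and did not pass the test in any knockout. It had 408, 373 and 400 CPM in Vhl/Hif2a KO libraries, against 320, 356 and 395 CPM in their controls, and the groups overlapped (log2 0.14 ± 0.10, edgeR adjusted p = 0.42). Vhl/Hif1a KO libraries had 399, 445 and 489 CPM, against 376, 363 and 363 CPM in their controls (log2 0.27 ± 0.10, edgeR adjusted p = 0.20). Triple KO libraries had 330, 332 and 335 CPM, against 345, 444 and 354 CPM (log2 -0.20 ± 0.10, edgeR adjusted p = 0.43, or -0.07 without control library 2). Of the Plod3 exons, 11.7% are shared with Znhit1 on the other strand, and its counts held decimals in 17 of 18 libraries. How shared reads were counted is not given in the sources used here. Znhit1 itself rose by 0.51 in Vhl/Hif2a KO (edgeR adjusted p = 0.010), and its part in the Plod3 values was not tested.

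The make-up of the lysyl hydroxylase RNA was then compared. Per kilobase, Plod1 made up 31.7% ± 1.33 of it in Vhl/Hif2a KO, against 18.3% ± 0.600 in the control, and Plod3 66.3% ± 0.704, against 81.6% ± 0.643 (SD, n = 3 each). Plod2 remained the least of the 3, at 1.97% ± 0.661 in Vhl/Hif2a KO, against 0.144% ± 0.105 in the control. In Vhl/Hif1a KO the Plod2 share was 0.170% ± 0.0600, against 0.0617% ± 0.0145, with the Plod1 share at 19.0% ± 1.08, against 18.9% ± 0.130. The groups did not overlap in the Plod2 share of either knockout, nor in the Plod1 and Plod3 shares of Vhl/Hif2a KO (exact permutation p = 0.1 each). In triple KO the 3 shares overlapped with those of the control. With the longest transcript as gene length, the Plod1 share in Vhl/Hif2a KO was 35.7%, against 21.1% in the control. The Plod3 share was then 62.3%, against 78.7%, and the SD values do not cover this choice of length.

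Colgalt1, the main collagen galactosyltransferase (chromosome 8, 71610998 to 71624911, plus strand), had 577, 645 and 592 CPM in Vhl/Hif2a KO libraries, against 594, 575 and 593 CPM in their controls, and the groups overlapped (log2 0.04 ± 0.08, edgeR adjusted p = 0.81). It had 607, 618 and 605 CPM in Vhl/Hif1a KO, against 611, 559 and 542 CPM (log2 0.10 ± 0.08, edgeR adjusted p = 0.72), and in triple KO 605, 626 and 617 CPM, against 614, 759 and 623 CPM (log2 -0.11 ± 0.08, edgeR adjusted p = 0.49, or -0.01 without the 3 control libraries that stand apart). Unc13a on the other strand shares 11.4% of the Colgalt1 exons, and Colgalt1 counts held decimals in all 18 libraries. Unc13a rose by 0.64 in Vhl/Hif2a KO (edgeR adjusted p = 0.0004), and its part in the Colgalt1 values was not tested.

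Colgalt2, its paralogue (chromosome 1, 152399830 to 152510695, plus strand), had the highest fitted fold change of the set in Vhl/Hif2a KO, within the error of that of P4ha2. It had 9.23, 11.1 and 12.1 CPM in Vhl/Hif2a KO libraries, against 0.307, 0.0772 and 0 CPM in their controls, or 1043 counts against 8. All 3 Vhl/Hif2a KO libraries lay far above every other library. The ratio of CPM was 91.1 (95% exact interval 46.1 to 212, counting error only), with a fitted log2 fold change of 6.43 ± 0.57 (edgeR adjusted p = 1.7e-06), or 7.86 without control library 1, which held most of the control counts. Colgalt2 made up 1.79% ± 0.228 of the RNA of both galactosyltransferase genes per kilobase in Vhl/Hif2a KO, against 0.0221% ± 0.0273 in the control (SD, n = 3 each). With the longest transcript as gene length the share was 1.38%, against 0.017%.

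In Vhl/Hif1a KO Colgalt2 had 6 counts over the 3 libraries, against 0 in the control. With 3 counts put in place of the 0 over the control group, the ratio of CPM was 1.83. This value leaves out the counting error of the 6 counts and is not a confidence limit. Colgalt2 was not called there (edgeR adjusted p = 0.30). Triple KO had 2 counts, against 1 in its control (fitted log2 0.68, or 0.29 without control library 2). Counts in the other crosses were too few to measure differences of Colgalt2 between crosses. The fit gave 2.32 ± 7.63 for Vhl/Hif2a KO over Vhl/Hif1a KO (edgeR adjusted p = 0.99) and 5.75 ± 2.89 over triple KO (adjusted p = 0.23, and called by DESeq2). These ± values were derived from the edgeR F statistic, and with so few counts they are not a sampling error.

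Ero1l, the oxidase that hands oxidising equivalents to protein disulfide isomerase (chromosome 14, 45283087 to 45318771, minus strand, Ero1a in RefSeq), had 291, 271 and 280 CPM in Vhl/Hif2a KO libraries, against 114, 104 and 103 CPM in their controls. The 2 groups lay far apart, and the rise was 2.62-fold (log2 1.39 ± 0.12, edgeR adjusted p = 2.6e-07). Vhl/Hif1a KO libraries had 121, 122 and 102 CPM, against 105, 102 and 101 CPM in their controls, and overlapped with them (log2 0.16 ± 0.12, edgeR adjusted p = 0.64). Triple KO libraries had 116, 115 and 116 CPM, against 107, 73.5 and 110 CPM (log2 0.26 ± 0.12, edgeR adjusted p = 0.43). They lay above all 3 controls, of which library 2 was far the lowest, and the log2 fold change was 0.10 without it.

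The Ero1l response in Vhl/Hif2a KO exceeded that in Vhl/Hif1a KO by 1.23 ± 0.16 (edgeR interaction, adjusted p = 0.00023) and that in triple KO by 1.13 ± 0.16 (adjusted p = 0.00023). Relative to P4hb, its substrate, Ero1l stood at 0.207 ± 0.0107 per kilobase in Vhl/Hif2a KO, against 0.0969 ± 0.00988 in the control (SD, n = 3 each, exact permutation p = 0.1). With the longest transcript as gene length these 2 means were 0.247 and 0.116. Per kilobase of exon, the ratio in Vhl/Hif1a KO was 0.0991 ± 0.011, against 0.0928 ± 0.00196 (exact permutation p = 0.4), and the groups overlapped. In triple KO it was 0.0957 ± 0.00091, against 0.0809 ± 0.0206 (exact permutation p = 0.1). Those groups did not overlap, and triple control library 2 was lowest, at 0.0572. Its paralogue Ero1lb had a mean of 70.1 CPM in Vhl/Hif2a KO, against 68.6 CPM in the control (log2 0.03 ± 0.14, edgeR adjusted p = 0.93).

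**Figure D3:**
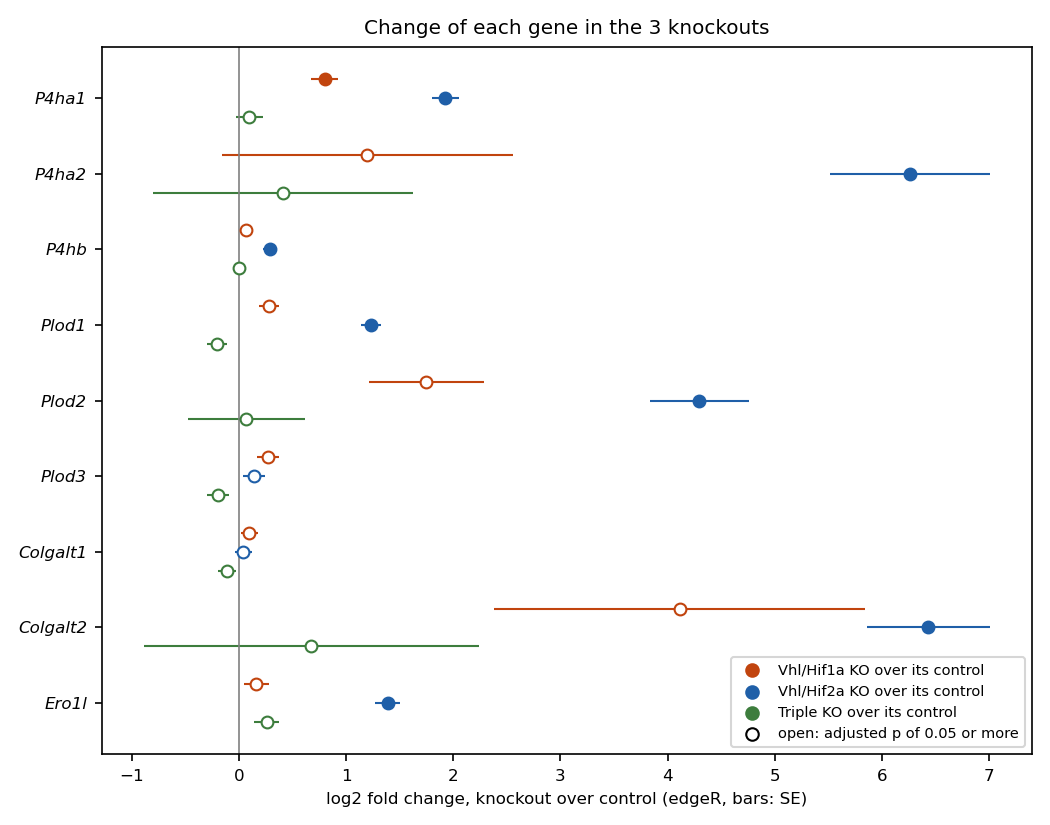
Log2 fold change of each gene (horizontal axis) in the 3 knockouts over their own controls. Bars are a standard error derived from the edgeR F statistic, and filled points have an adjusted p under 0.05. The Vhl/Hif2a KO points run from 0.04 for Colgalt1 to 6.43 for Colgalt2, and the wide bars of P4ha2, Plod2 and Colgalt2 belong to groups with few counts.

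The 9 genes spanned a wide range of levels, and the order of the abundant ones was much alike in all groups. Compared per kilobase of exon, P4hb was highest in every group, at 257 CPM per kilobase in Vhl/Hif2a KO and 210 in its control, followed by Colgalt1 (140 and 136) and Plod3 (87.1 and 79.0). P4ha1, Ero1l and Plod1 came next, at 85.7, 53.1 and 41.6 CPM per kilobase in Vhl/Hif2a KO, against 22.5, 20.3 and 17.7 in the control. Plod2, Colgalt2 and P4ha2 were lowest, at 2.59, 2.55 and 0.423 CPM per kilobase in Vhl/Hif2a KO, against 0.132, 0.0301 and 0.00479 in the control. In Vhl/Hif2a KO the libraries of Plod3 and P4ha1 overlapped in level, as did those of Plod2 and Colgalt2. In the control, the neighbours P4ha1 and Ero1l overlapped, as did Ero1l and Plod1, Plod2 and Colgalt2, and Colgalt2 and P4ha2. The order of P4ha1, Ero1l and Plod1 depends on the gene length used, and P4ha1 ranked 6 and not 4 in the controls of both double knockouts when the longest transcript was used.

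The amount of RNA added was also compared. By difference in CPM per kilobase between Vhl/Hif2a KO and control, P4ha1 led with 63.2, followed by P4hb with 47.0, Ero1l with 32.8 and Plod1 with 23.9. Colgalt2, Plod2 and P4ha2 added 2.52, 2.46 and 0.418 CPM per kilobase.

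The 3 controls were also compared with each other. P4ha1 was higher in the Vhl/Hif1a control than in the triple control by 0.46 ± 0.12 on the log2 scale (edgeR adjusted p = 0.043), where 2.42% of all tested genes were called higher and 5.4% in either direction. This call held in 6 of 12 alternatives and was lost in 4 of 6 fits that left out 1 library. It was also lost without the 3 control libraries that stand apart and when only the 6 libraries compared were fitted. P4ha1 was the only one of the 9 genes called there, and between the Vhl/Hif2a control and the other controls 0 of 9 were called by edgeR. An unadjusted edgeR p under 0.05 was found for Colgalt2 against the Vhl/Hif1a control, and for P4ha1, Plod1, Colgalt2 and Colgalt1 against the triple control, where DESeq2 called 1 of the 9. Of all tested genes, edgeR called 0.341% and 3.42% in these 2 comparisons.

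Beside the 9 genes, 8 lists of genes around the same pathway were examined, chosen for function with earlier results of these data known. Their counts in Vhl/Hif2a KO stand beside 7.68% of all tested genes called higher and 7.01% lower, and in Vhl/Hif1a KO beside 2.22% and 1.42%. Among the 13 tested of 17 genes for the prolyl 3-hydroxylase complex and collagen chaperones, 0 rose and 3 fell in Vhl/Hif2a KO, and their median log2 fold change was -0.05. P3h2, a prolyl 3-hydroxylase, fell by 2.30 on the log2 scale (SE 0.57, edgeR adjusted p = 0.011) at a low level of 0.0720 CPM in Vhl/Hif2a KO, against 0.381 CPM in the control. Tmem38b, an endoplasmic reticulum cation channel, fell by 0.72 in Vhl/Hif2a KO and by 0.41 in Vhl/Hif1a KO (edgeR adjusted p = 2.5e-05 and 0.012). P3h3, another family member, fell by 0.64 (adjusted p = 0.029), and the most abundant gene of the list, Mia2, had a log2 fold change of -0.19 (adjusted p = 0.27).

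Of 11 tested among 23 genes for lysyl oxidases and procollagen processing, 1 rose and 1 fell in Vhl/Hif2a KO. They were the macrophage elastase Mmp12, at 49.0 ± 15.5 CPM against 15.1 ± 4.16 CPM in the control (SD, n = 3 each, edgeR adjusted p = 0.00026), and the membrane metalloproteinase Mmp14, which fell by 1.57 on the log2 scale (adjusted p = 0.012). The collagen-degrading protease Ctsk rose by 0.52 in Vhl/Hif1a KO (edgeR adjusted p = 0.00089) and Mmp8, the neutrophil collagenase, fell by 0.80 (adjusted p = 0.047). Furin, the most abundant of the list, was not called in any knockout.

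Collagen chains themselves were mostly too low to test, with 9 of 32 genes tested. In Vhl/Hif2a KO 2 rose and 1 fell. Col14a1 stood at 19.5 ± 1.90 CPM in Vhl/Hif2a KO, against 2.59 ± 0.702 CPM in the control (SD, n = 3 each, log2 2.91, edgeR adjusted p = 2.4e-08), and Col6a3 at 6.45 ± 0.228 CPM, against 0.937 ± 0.458 CPM (log2 2.79, adjusted p = 1e-05). Both also rose in Vhl/Hif1a KO, by 1.65 and 2.04 (edgeR adjusted p = 6.8e-05 and 0.0016). Col15a1, the most abundant chain, fell by 1.05 in Vhl/Hif1a KO (edgeR adjusted p = 0.00059), and Col27a1 fell by 1.98 in Vhl/Hif2a KO (adjusted p = 0.018) at under 1 CPM in both groups.

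Proteins with collagen-like domains gave 5 higher and 1 lower of 11 tested (28 listed) in Vhl/Hif2a KO, with a median log2 fold change of 0.49. Emilin2, an elastin-associated glycoprotein, had 325 ± 14.9 CPM in Vhl/Hif2a KO, against 90.1 ± 12.4 CPM in the control (SD, n = 3 each, log2 1.85, edgeR adjusted p = 3.8e-07), and it rose by 2.50 in Vhl/Hif1a KO (adjusted p = 8.8e-08). The scavenger receptors Colec12, Msr1 and Marco rose by 2.29, 1.04 and 0.49 in Vhl/Hif2a KO (edgeR adjusted p = 3e-06, 0.001 and 0.029), and Emilin1 by 0.56 (adjusted p = 0.049), with 0.67 in Vhl/Hif1a KO (adjusted p = 0.052). The complement chain C1qb fell by 1.71 (adjusted p = 0.022) at a level near 1 CPM.

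**Figure D4:**
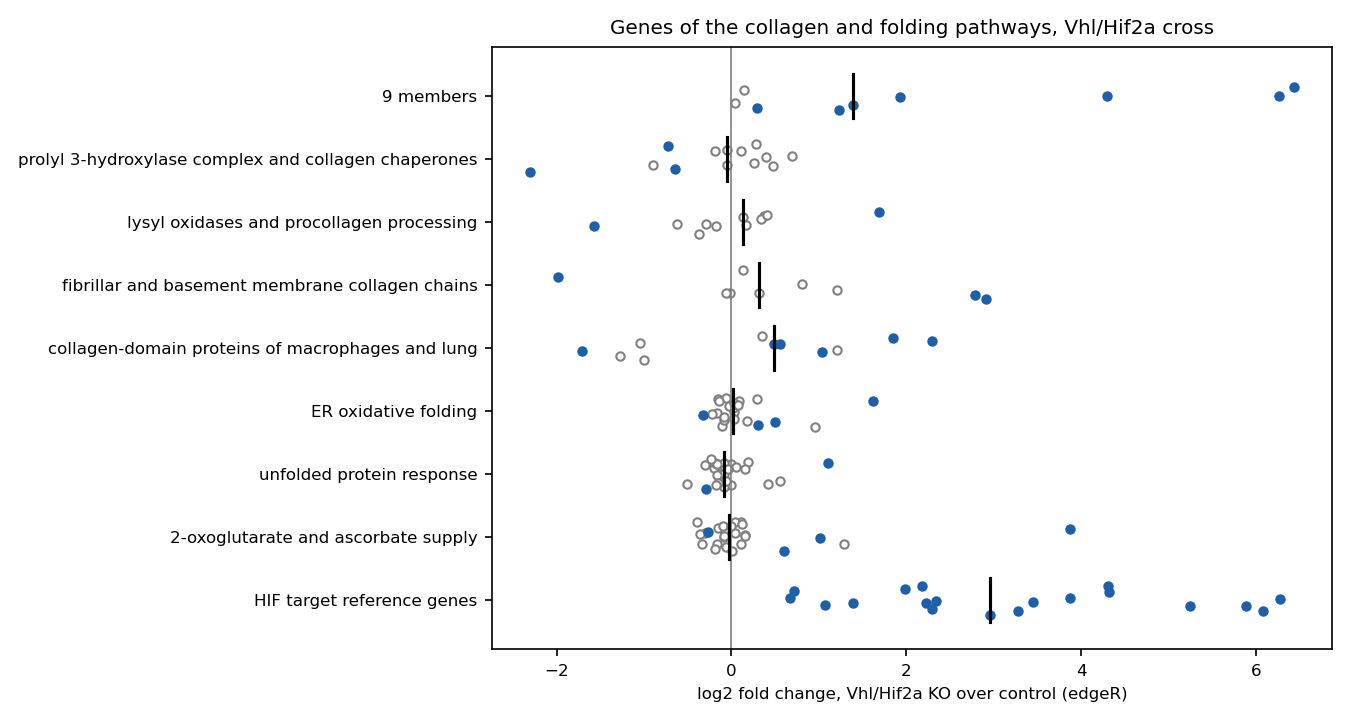
Log2 fold change in Vhl/Hif2a KO over its control (horizontal axis) for the 9 genes and for the tested genes of 8 related lists, with the list median as a vertical bar; filled points have an edgeR adjusted p under 0.05. The median of the 9 genes is 1.39 and that of the HIF target list 2.96, and the other lists have medians between -0.09 and 0.49.

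Of 23 tested genes for oxidative folding in the endoplasmic reticulum (26 listed), 3 rose and 1 fell in Vhl/Hif2a KO, with a median of 0.02, where 14.7% of all tested genes were called in either direction. Among them 0 were called in Vhl/Hif1a KO by edgeR, 3 had an unadjusted p under 0.05 and 1 was called by DESeq2. Gpx8, a peroxidase of the endoplasmic reticulum, rose by 1.62 from a low level, with 1.33 ± 0.750 CPM in Vhl/Hif2a KO against 0.429 ± 0.0613 CPM in the control (SD, n = 3 each, edgeR adjusted p = 0.014). The sulfhydryl oxidase Qsox1 rose by 0.50 and the peroxiredoxin Prdx4 by 0.30 (edgeR adjusted p = 0.004 and 0.022), and Qsox2 fell by 0.33 (adjusted p = 0.027). Pdia3, the most abundant of the list, had -0.15 (adjusted p = 0.46).

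Of 26 genes of the unfolded protein response, all tested, 1 rose and 1 fell in Vhl/Hif2a KO, with a median of -0.09. They were Ppp1r15a, a phosphatase subunit induced by stress (1.10, edgeR adjusted p = 0.018), and the stress sensor Atf6 (-0.29, adjusted p = 0.022). The chaperone Calr, the most abundant gene of this list, had 1142 ± 70.2 CPM in Vhl/Hif2a KO, against 1216 ± 105 CPM in the control (SD, n = 3 each, edgeR adjusted p = 0.52).

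For the supply of 2-oxoglutarate, ascorbate, iron and proline, 26 of 28 genes were tested, and 3 rose and 1 fell in Vhl/Hif2a KO. Slc2a1, which carries glucose and dehydroascorbate and is also on the HIF target list, rose by 3.87 in Vhl/Hif2a KO and 1.72 in Vhl/Hif1a KO (edgeR adjusted p = 5.7e-10 and 1.5e-05). Prodh, which degrades proline, rose by 1.01 in Vhl/Hif2a KO and the citrate carrier Slc25a1 by 0.60 (adjusted p = 0.00069 and 0.011). Aldh18a1, which makes proline from glutamate, fell by 0.27 in Vhl/Hif2a KO and 0.37 in Vhl/Hif1a KO (adjusted p = 0.046 and 0.025). Fth1, ferritin heavy chain and the most abundant of the list, had 5641 ± 324 CPM in Vhl/Hif2a KO, against 5622 ± 422 CPM in the control (SD, n = 3 each, edgeR adjusted p = 0.99).

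Known HIF targets outside the set gave the scale of the response. All 19 tested of the 20 listed rose in Vhl/Hif2a KO, with a median of 2.96, and 11 of them rose in Vhl/Hif1a KO, with a median of 0.54. Vegfa, Egln3, Ak4 and Bnip3 rose by 6.27, 6.08, 5.89 and 4.31 in Vhl/Hif2a KO (edgeR adjusted p between 9.8e-11 and 0.00071), and Aldoa, the most abundant, by 1.39. Egln3 rose in Vhl/Hif1a KO as well, by 5.41 (edgeR adjusted p = 0.0033), and so did Ankrd37 and Adm, by 4.12 and 4.77. Vegfa and Ak4 were not called there (adjusted p = 0.85 and 0.69). In triple KO edgeR called 0 of the 137 tested genes of the 8 lists, DESeq2 called 0, and 15 had an unadjusted edgeR p under 0.05.

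The tested genes with a pattern nearest to called members were found from the 3 log2 fold changes, by the root mean square difference, among genes with a mean of at least 1 CPM. Nearest to P4ha1 were Rasgef1a, Syt8 and Prr15 (0.0732, 0.115 and 0.164). Nearest to Plod1 were Dlec1, Sec16b and Ces2c (0.0281, 0.0763 and 0.0841), to Ero1l Pfkfb3 and Cysltr1 (0.0450 and 0.105), and to P4hb Ppia, Tmem230 and Ccny (0.0108, 0.0126 and 0.0134). Plod2 was nearest to Nrn1, Bnip3 and C4b (0.235, 0.381 and 0.381). None are given for P4ha2 and Colgalt2, whose fitted changes in Vhl/Hif1a KO and triple KO rest on at most 6 counts in a group.

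Markers of other cells were read beside these results. The 9 fibroblast and mesenchyme markers summed to 1.71 to 3.35 CPM in Vhl/Hif2a KO libraries, against 1.35 to 2.71 CPM in their controls, mostly from Acta2, and the defining gene Col1a1 averaged 0.0221 CPM in Vhl/Hif2a KO, against 0.0469 CPM in the control. They summed to 1.45 to 2.46 CPM in Vhl/Hif1a KO, against 2.07 to 24.1 CPM in the control, where library 2 alone held 7.44 CPM of Col1a1. P4ha1 was called in Vhl/Hif1a KO in all 6 fits that left out 1 library, this one included. The 8 dendritic cell markers summed to 10.4 to 14.1 CPM in Vhl/Hif2a KO libraries, against 22.8 to 54.8 CPM in their controls, and the 7 neutrophil markers to 74.0 to 82.4 CPM in Vhl/Hif1a KO, against 149 to 165 CPM in its control. Most of that neutrophil sum was Csf3r and Mmp8, which fell in Vhl/Hif1a KO, as did Cxcr2. S100a8 rose there, at 6.9 CPM against 3.07 CPM (edgeR adjusted p = 0.0014). S100a9 and Retnlg were not called, and Ly6g had 0 CPM in every library. Single markers of other lists were called as well. F13a1 averaged 10.1 CPM in Vhl/Hif1a KO, against 0.246 CPM in the control (edgeR adjusted p = 0.0002), and Epcam 33.1 CPM, against 66.1 CPM (adjusted p = 0.0017). The other tested genes of their lists were not called there. In Vhl/Hif2a KO, Cdh1 and Ccr2 rose (adjusted p = 0.0023 and 0.016) and C1qb fell. The part of other cells in the results was not tested.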

How the data were processed

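Poly(A) RNA of alveolar macrophages was sequenced from directional libraries of 18 samples, 3 per group. The deposited table holds expected counts per gene, not normalized, which the authors made with FastQC, cutadapt, STAR and build GRCm38, per the submitters' processing notes; the sources used here give no versions, counting step or strand setting. Of its values 89.25% were whole, and the others were rounded. Genes were filtered with filterByExpr (minimum count 10), leaving 12900 genes and 99.967% of counts, and scaled by TMM. One quasi-likelihood model (edgeR 4.0.16, R 4.3.3) over all 6 groups gave the 3 knockout comparisons, 3 interactions and 3 comparisons of controls, with Benjamini-Hochberg adjusted p under 0.05 as the threshold. The SE was taken from the F statistic, as the absolute log2 fold change over the square root of F. It is not reliable where a group has few or 0 counts. The script was tested on simulated counts.

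Gene lengths and positions came from GENCODE M21, with 32637 identifiers matched, and promoters from RefSeq. CPM used TMM-scaled library sizes. Exact permutation tests (scipy 1.17.1) were two-sided. Where a group had 0 counts, 3 counts over the group served as the floor, and exact intervals were at 95%. The members and lists were chosen with earlier results of these data known. All 9 members were described in every comparison. From each list the text names up to 6 called genes with the largest change and the most abundant gene, and for called members the 3 genes nearest in pattern (not for P4ha2 and Colgalt2, for few counts), of which 1 is not reported here. Alternatives were size factors of the DESeq2 type, DESeq2 1.42.0, no filter, only the libraries compared, a replicate block, leaving out each library and, added after seeing the data, leaving out 3 control libraries. These 3 were picked for the highest or lowest levels among the 9 genes. Gene length was alternatively that of the longest transcript.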

Additional observations from a re-analysis of the deposited data

Results flagged for a closer look

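Of the 9 genes, 4 had a knockout response that differed between crosses when the difference of the 2 log2 fold changes was tested (edgeR interaction term, Benjamini-Hochberg adjusted p over 12900 genes). The response in Vhl/Hif2a KO exceeded that in Vhl/Hif1a KO by 0.96 for Plod1, 1.13 for P4ha1 and 1.23 for Ero1l, and all 3 calls held in each of the 18 alternatives. It exceeded the response in triple KO by 1.44 for Plod1, 1.83 for P4ha1, 1.13 for Ero1l and 4.23 for Plod2, again in each of the 18 alternatives. P4ha1 also responded more in Vhl/Hif1a KO than in triple KO, by 0.70 (adjusted p = 0.048), with a call in 7 of 18 alternatives. The comparisons that share a cross use the same libraries of that cross.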

How the results depend on the processing

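The 7 calls of Vhl/Hif2a KO and the P4ha1 call of Vhl/Hif1a KO held under all 12 alternatives, and triple KO had 0 of 9 called under each. P4ha2 and Colgalt2 passed the filter only through the Vhl/Hif2a KO libraries. Every alternative except the one without the filter reused that filtered set, so for these 2 genes they are not independent support. With the replicate number as a block the counts of members called were again 1, 7 and 0 in Vhl/Hif1a KO, Vhl/Hif2a KO and triple KO. The labels do not say whether the numbers pair libraries. Deviations of same-numbered libraries correlated at -0.0801, 0.0964 and -0.0786, at -0.291, -0.0522 and 0.234, and at 0.125, -0.0431 and -0.138 in the 3 crosses. Those of libraries with different numbers correlated at -0.311 to 0.321. With 3 libraries per group these values cannot show whether the numbers pair them. The count in Vhl/Hif1a KO was 2 under DESeq2, with only its libraries, and without the 3 control libraries that stand apart. DESeq2 called 7 members in Vhl/Hif2a KO over triple KO (reported 4) and 3 in Vhl/Hif1a KO over triple KO (reported 1, leave-one-out range 0 to 1). Between controls, DESeq2 called 1 in Vhl/Hif2a against triple (reported 0, leave-one-out range 0 to 1) and 2 in Vhl/Hif1a against triple (reported 1, leave-one-out range 0 to 1), and 0 there with only its libraries or without the 3 control libraries. Without those 3 libraries the sign turned for P4ha1 (-0.02) and P4ha2 (-0.03) in triple KO, for P4hb (-0.00074) and Ero1l (0.06) in Vhl/Hif1a KO over triple KO, and for P4ha1 in Vhl/Hif2a against Vhl/Hif1a control (0.06). Leaving out 1 library turned the sign of changes that were not called. These were Colgalt1 in Vhl/Hif2a KO (-0.01 to 0.08), P4ha1 (-0.01 to 0.20), P4ha2 (-0.43 to 3.05), P4hb (-0.02 to 0.06), Plod2 (-0.23 to 0.84) and Colgalt2 (-1.87 to 2.55) in triple KO, P4ha2 (-1.85 to 2.79) and Ero1l (-0.19 to 0.07) in Vhl/Hif1a KO over triple KO, and P4ha1 in Vhl/Hif2a against Vhl/Hif1a control (-0.10 to 0.04). Over all genes the calls ranged from 282 to 760 in Vhl/Hif1a KO (reported 469), 1227 to 2450 in Vhl/Hif2a KO (1895) and 2 to 11 in triple KO (5). They ranged from 194 to 492, 683 to 1509 and 150 to 482 in the 3 differences between crosses (315, 1031 and 263), and from 21 to 88, 17 to 983 and 59 to 1293 between controls (44, 441 and 697). The cause was not tested. P4ha2 and Colgalt2 had at most 8 counts over any group other than Vhl/Hif2a KO, which limits what their changes there can show.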
